A study of Glycine max with 9 samples.

Results

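Of the chalcone synthase loci of soybean (Glycine max), 9 were followed in root hair cells, which grow out from single cells of the root surface. They were chosen by gene ID: Glyma.01G228700 and Glyma.11G011500, known as the CHS7/CHS8 pair, a cluster of 4 loci on chromosome 8 (Glyma.08G109200, Glyma.08G109300, Glyma.08G109400 and Glyma.08G109500), and the single loci Glyma.02G130400, Glyma.05G153200 and Glyma.09G075200. All 9 are among the 56044 gene IDs measured. RNA was sequenced from 9 libraries of plants of cultivar Williams 82 (spelled "willam 82" in the labels) raised in an ultrasound aeroponic system, which keeps roots in a nutrient mist. The 12h, 24h and 48h groups, named after their titles, hold 3 libraries each, aged 276, 288 and 312 hours after sowing, with no treatment, mutation or transgene given in the labels. The ages of 48h and 24h differ by 24 hours, so these groups fall at the same time of day if sowing and sampling kept to 1 schedule. In comparisons with 12h, age and time of day cannot be told apart. The labels do not tell whether libraries of 1 group had different plants as their source, so the p-values measure only how these libraries vary, and that variation may be technical.

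Chalcone synthase catalyses the entry step of flavonoid synthesis: it joins coumaroyl-CoA, made from phenylalanine, with malonyl-CoA into a chalcone. In legumes the chalcone feeds isoflavonoids, which act in roots as defence compounds and as signals to nodulating bacteria, and in other tissues flavonols and anthocyanin pigments. Soybean carries many near-identical copies of the gene. In yellow-seeded cultivars such as Williams 82, an inverted repeat of copies on chromosome 8 gives rise to small RNAs that silence the family in the seed coat; small RNAs are not analysed here.

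Levels are given in FPKM, which divides fragments by both gene length and library size, so levels of different genes can be set side by side. Depth per library is unknown. Near-identical copies share reads, so the split of the signal between copies is less certain than their sum, and a copy listed at 0 may be a failed estimate. The RefSeq table of assembly Glycine_max_v4.0 holds 17 genes with a chalcone synthase symbol, 1 of them a pseudogene, and 9 of the 17 on chromosome 8. These symbols could not be paired with the measured IDs, so totals below cover the 9 listed loci and not the whole family. The same lack of pairing left the root hair label unchecked against marker genes. The deposited table is named for tissue culture, whereas every label gives root hair cells, and the labels were followed here. Libraries of a group correlated across genes at 0.777 to 0.883 for 12h, 0.925 to 0.951 for 24h and 0.964 to 0.969 for 48h. By the share of its top genes 1 library stood apart: 12h replicate 2, whose top 100 genes took up 53.6% of all FPKM, where the other 8 libraries had 22.5% to 38.5%. By the number of IDs above 0, 24h replicate 3 was lowest with 37256, then 12h replicate 2 with 37881, and the rest had 40885 or more.

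A single pair of copies supplied nearly all transcript of the 9 listed chalcone synthase loci. Together Glyma.01G228700 and Glyma.11G011500 made up 97.5% to 99.1% of the family total in the 9 libraries, and the other 7 loci 0.860% to 2.46%. The family total was 1019, 946 and 1521 FPKM at 12h, then 807, 1282 and 1159 FPKM at 24h, then 767, 874 and 829 FPKM at 48h. The highest total, in 12h replicate 3, was 1.98 times the lowest, in 48h replicate 1. The total amounted to between 0.0642% (12h replicate 2) and 0.219% (12h replicate 3) of a library's FPKM sum. In bulk RNA of this kind, fewer cells of a type and less RNA per cell cannot be told apart.

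**Figure D1:**
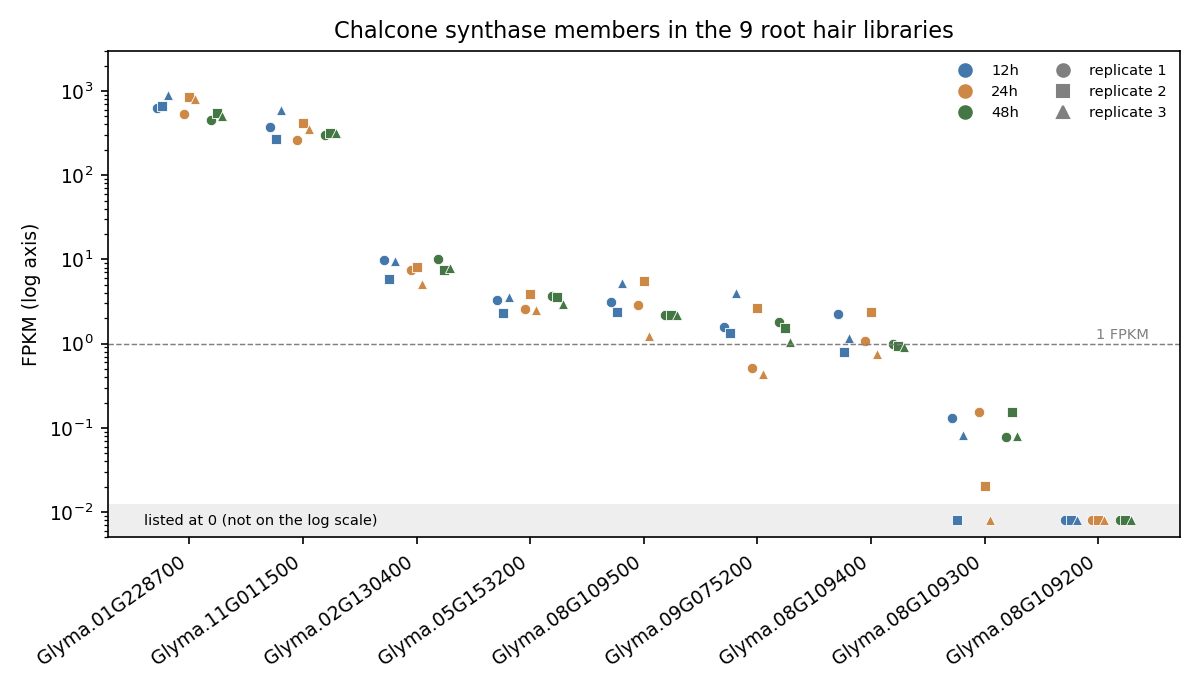
FPKM (log axis) of the 9 chalcone synthase loci in each library, ordered by mean level, with color for the group and marker shape for the replicate. The pair at the left lies between 262 and 902 FPKM in every library, whereas the other loci stay at 10.1 FPKM or below, and Glyma.08G109200 is listed at 0 in all 9.

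Glyma.01G228700 was the most abundant of the listed copies. Its level was 630, 667 and 902 FPKM at 12h, 530, 839 and 794 FPKM at 24h and 451, 543 and 500 FPKM at 48h. As deposited, all 48h libraries lay below all 12h libraries, as they did at 2.23% of all tested genes, while 24h overlapped both. Among all 56044 IDs it ranked between 45 (12h replicate 3) and 234 (12h replicate 2), which makes it one of the more abundant transcripts of these cells. It held 58.8% to 70.5% of the family total.

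Glyma.11G011500 had 369, 267 and 595 FPKM at 12h, 262, 420 and 355 FPKM at 24h and 297, 315 and 314 FPKM at 48h. The 12h libraries spread widely around the narrow 48h values, and all groups overlapped. Its rank ran from 96 (12h replicate 3) to 587 (12h replicate 2), and its share of the family total from 28.2% to 39.1%. Glyma.01G228700 was the higher of the pair in 9 of 9 libraries.

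The ratio of the pair, Glyma.01G228700 over Glyma.11G011500, was 1.71, 2.498 and 1.52 at 12h, 2.02, 1.998 and 2.23 at 24h and 1.52, 1.72 and 1.59 at 48h. Every 48h library thus had a lower ratio than every 24h library, but the 12h libraries spanned both. On the log2 scale the mean ratio was 0.69 ± 0.091 in 48h libraries, against 1.06 ± 0.089 in 24h libraries (SD, 3 libraries a group). The difference was -0.37. The two-sided exact permutation p was 0.1, the smallest that 3 against 3 libraries can give, and 0.3 after Benjamini-Hochberg adjustment over the 3 comparisons. The ratio differed by 0.16 for 24h against 12h (exact permutation p = 0.5) and by -0.21 for 48h against 12h (exact permutation p = 0.7), both 0.7 when adjusted. Leaving out 12h replicate 2 made the 24h against 12h difference 0.37, and leaving out 12h replicate 3 made it 0.012. The same omissions made the 48h against 12h difference 0.0011 and -0.36. Both rest on these 12h libraries. The 48h against 24h difference stayed between -0.42 and -0.32 when any 1 library was left out. The test could not have passed a threshold of 0.05 at this number of libraries, so it does not settle whether the copies moved by different amounts.

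**Figure D2:**
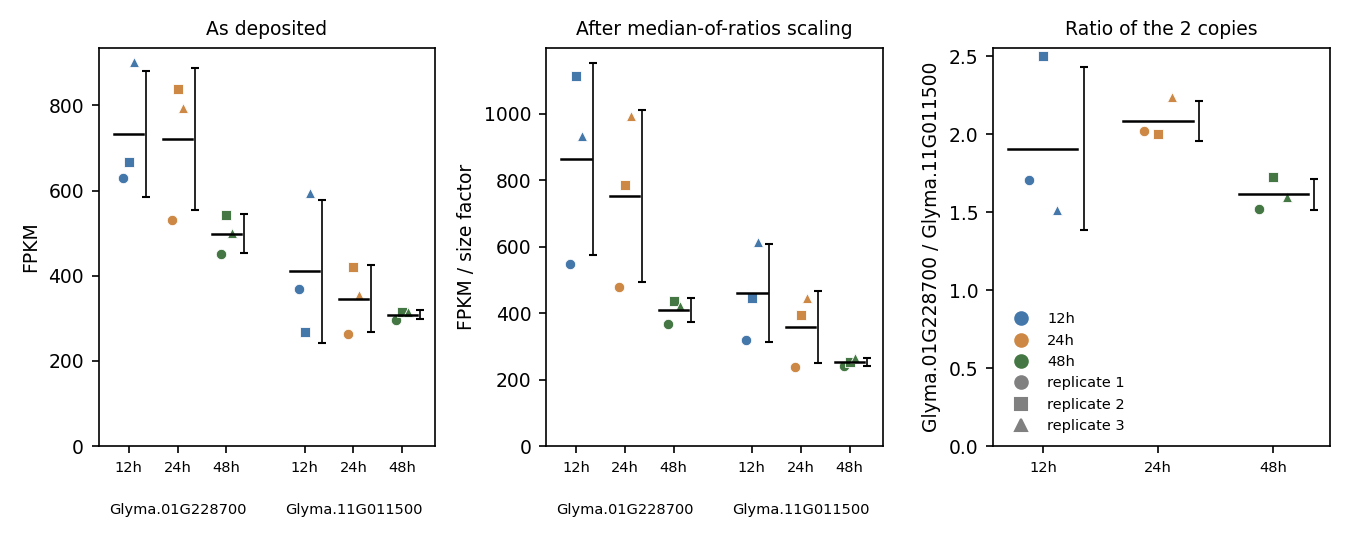
Levels of Glyma.01G228700 and Glyma.11G011500 as deposited (left, FPKM) and after median-of-ratios scaling (middle, FPKM over the library's size factor), and their ratio (right), with points for libraries, lines for group means and bars for the SD of 3 libraries. The 48h points of Glyma.01G228700 (451 to 543 FPKM) lie under all 12h points (630 to 902 FPKM), and the 48h ratios (1.52 to 1.72) under all 24h ratios (1.998 to 2.23).

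Of the loci outside the pair, Glyma.02G130400 was highest, at 9.91, 5.87 and 9.60 FPKM at 12h, 7.54, 8.08 and 5.05 FPKM at 24h and 10.1, 7.58 and 7.84 FPKM at 48h. The mean of Glyma.11G011500, the next copy up, was 44.6 times its own, so no listed locus lay between the pair and the rest. As deposited, the groups of Glyma.02G130400 overlapped, and 12h replicate 2 and 24h replicate 3 were its lowest libraries. These libraries had the lowest size factors (0.599 and 0.798), so scaling raises their values relative to the others. In deposited values Glyma.05G153200 was lowest in 12h replicate 2 (2.30 FPKM) and highest in 24h replicate 2 (3.93 FPKM), the narrowest relative range of the 8 loci detected (1.71-fold). Glyma.09G075200 had the widest among loci above 0 in every library, 8.99-fold, between 0.438 FPKM (24h replicate 3) and 3.94 FPKM (12h replicate 3). At 24h its libraries had 0.521, 2.65 and 0.438 FPKM, so 24h replicate 2 set that group's mean.

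The listed loci of the chromosome 8 cluster contributed little to the total. These 4 loci have consecutive IDs and summed to 2.002 to 7.998 FPKM per library. Glyma.08G109500 carried most of this, with 3.14, 2.36 and 5.24 FPKM at 12h, 2.88, 5.57 and 1.25 FPKM at 24h and 2.21, 2.19 and 2.17 FPKM at 48h. The 48h values were close together and below every 12h value, whereas the 24h libraries spanned the whole range. Glyma.08G109400 ran from 0.755 FPKM (24h replicate 3) to 2.40 FPKM (24h replicate 2) and reached 1 FPKM in 4 of 9 libraries. Glyma.08G109300 did not exceed 0.156 FPKM and was listed at 0 in 2 libraries, 12h replicate 2 and 24h replicate 3. Glyma.08G109200 was listed at 0 in all 9.

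By mean level the order was Glyma.01G228700, Glyma.11G011500, Glyma.02G130400, Glyma.05G153200, Glyma.08G109500, Glyma.09G075200, Glyma.08G109400, Glyma.08G109300 and Glyma.08G109200. Neighbours kept this order in 9 of 9 libraries except in 3 places. Glyma.05G153200 exceeded Glyma.08G109500 in 5 of 9 and Glyma.09G075200 exceeded Glyma.08G109400 in 6 of 9, so these neighbours are not told apart. Glyma.08G109300 exceeded Glyma.08G109200 in 7 of 9, with both at 0 in the other 2.

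No copy passed the test for a change with age, and the intervals were wide. The 7 loci that reached 1 FPKM in 3 or more libraries were tested with limma among 31518 genes, on log2(FPKM + 1), a scale that understates changes of low genes. For 24h against 12h, 0 of 7 were called at an adjusted p under 0.05 (limma adjusted p 0.546 to 0.995), beside 0.0381% of all tested genes. For 48h against 24h, 0 of 7 were called (limma adjusted p 0.442 to 0.863), beside 0% of all tested genes. For 48h against 12h, 0 of 7 were called (limma adjusted p 0.523 to 0.965), beside 0.117% of all tested genes. The F test over the 3 ages called 0 of 7, with 0.0286% of all genes called. At an unadjusted p under 0.05, limma also called 0 of 7 loci in each comparison. The share of all tested genes under that value was 9.96% between 24h and 12h, 17.9% between 48h and 24h, and 10.8% between 48h and 12h.

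For 48h against 12h, Glyma.01G228700 averaged 498 ± 45.8 FPKM in 48h libraries, against 733 ± 148 FPKM in 12h libraries (SD, 3 libraries a group). The fitted log2 fold change was -0.54 with an SE of 0.35 (adjusted p = 0.523, limma). Its 95% interval ran from -1.31 to 0.23, a fold of 0.402 to 1.17. Glyma.11G011500 averaged 309 ± 10.3 FPKM in 48h libraries, against 410 ± 168 FPKM in 12h libraries. Its log2 fold change was -0.33, with an interval of -1.15 to 0.48 (adjusted p = 0.658, limma). For this comparison, median-of-ratios scaling gave -1.02 for Glyma.01G228700 and -0.81 for Glyma.11G011500. Quantile normalization gave -0.19 and -0.086 for them, so the size of the change depended on the normalization. For 24h against 12h, Glyma.01G228700 averaged 721 ± 167 FPKM in 24h libraries, against the same 733 ± 148 FPKM in 12h libraries. Here the log2 fold change was -0.034, with an interval of -0.81 to 0.74. Over the 7 loci and 3 comparisons, the 95% intervals on deposited values lay between -1.51 and 1.17, both ends from Glyma.09G075200. Those of Glyma.05G153200 stayed between -0.672 and 0.805. Changes inside a locus's own interval were not resolved.

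**Figure D3:**
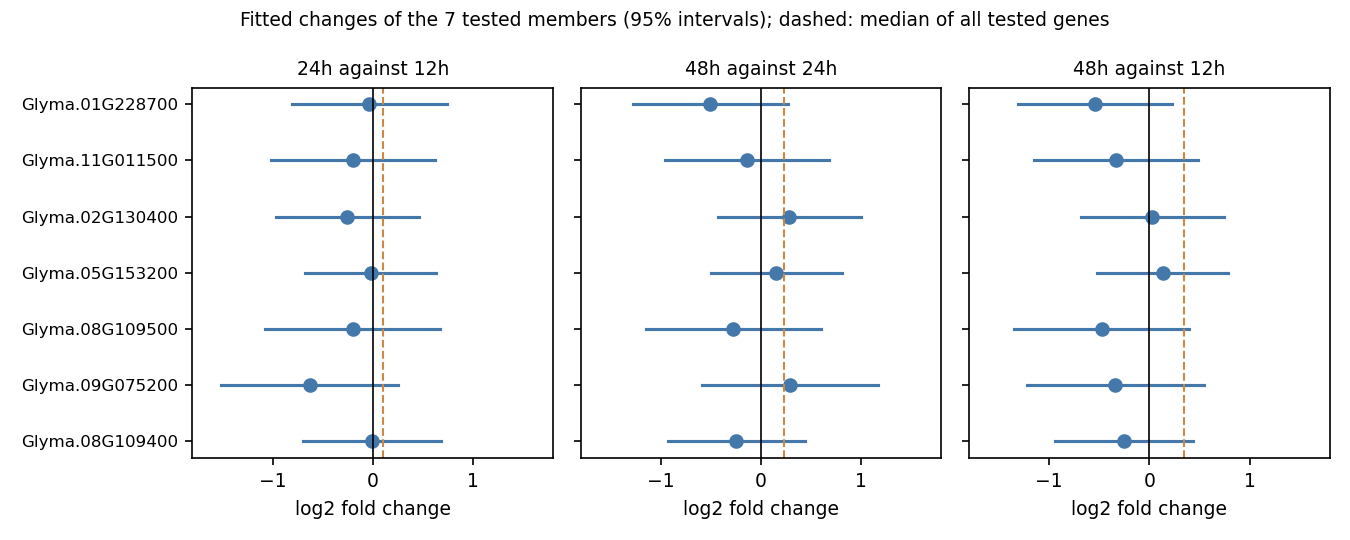
Fitted log2 fold changes of the 7 tested chalcone synthase loci (points) with 95% limma intervals (bars) in the 3 comparisons, with the median of all 31518 tested genes dashed. Every interval covers 0, and in 48h against 12h every point lies left of the dashed line at 0.341. Glyma.08G109400 passed the filter only through 12h and 24h libraries.

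The calls were repeated with 12h replicate 2 or 24h replicate 3 left out. Without 12h replicate 2, limma called 12.1% of all tested genes for 24h against 12h and 0 of the 7 loci, the lowest adjusted p being 0.201 for Glyma.09G075200. For 48h against 24h it then called 11.8% of genes and 0 of 7 loci. Without 24h replicate 3, limma called 0.00635% of genes for 24h against 12h, 0% for 48h against 24h, and 0 of 7 loci in both. Fitted on only the 24h and 48h libraries, it called 17.2% of genes and again 0 of 7, the lowest adjusted p being 0.139 for Glyma.01G228700 with a log2 fold change of -0.51.

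As deposited, the median log2 fold change of the 7 tested loci was below that of all tested genes in each comparison. For 48h against 12h it was -0.332 over the loci, 5 of 7 being below 0, and 0.341 over all genes. It was -0.194 for 24h against 12h, with 7 of 7 below 0 and 0.102 over all genes. For 48h against 24h it was -0.139, with 4 of 7 below 0 and 0.228 over all genes. After median-of-ratios scaling, which brings the median of all genes to -0.0225 for 48h against 12h, the 7 loci had a median of -0.631 and 7 of 7 were below 0. Quantile normalization gave a median of -0.32 there, with 0.0508 over all genes and 7 of 7 below 0. Between 48h and 24h, however, it gave -0.0166 over the loci and 9.13e-05 over all genes, so the gap was gone. Glyma.08G109400, below 0 in each of these counts, reached 1 FPKM in 12h and 24h libraries only and passed the filter through them. Its sign against 48h, and its part in the medians, are therefore not evidence of a fall. These medians describe a list of copies that may share reads and are not a test.

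After scaling, more of the loci, and more of all genes, had groups that did not overlap. As deposited, all 48h libraries lay below all 12h libraries at 2 of the 7 loci, Glyma.01G228700 and Glyma.08G109500, beside 2.23% of all tested genes. After scaling this held at 5 of 7, beside 7.77% of genes, the exceptions being Glyma.05G153200 and Glyma.09G075200. Scaled levels of Glyma.01G228700 were 367, 437 and 423 at 48h, against 547, 1113 and 933 at 12h. Here 12h replicate 2, with the lowest size factor (0.599), became its highest library. For 48h against 24h, 0 of 7 loci lay below as deposited (11.7% of genes) and 2 of 7 after scaling (22.7% of genes), Glyma.01G228700 and Glyma.08G109400. Glyma.08G109400 reached 1 FPKM in 12h and 24h libraries only, with 0.984, 0.949 and 0.915 FPKM at 48h. It passed the filter through the groups where it is higher. Its part in these counts, 48h against 12h included, is therefore not evidence of a fall. For 24h against 12h the numbers were 0 of 7 as deposited (1.73% of genes) and 1 of 7 after scaling (8.79% of genes), Glyma.02G130400. No locus was called by limma after scaling in any comparison.

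Of the tested genes outside the 9 listed loci, Glyma.03G196300 and Glyma.19G151300 followed the family total most closely over the 9 libraries (Pearson r of log2 levels 0.984 and 0.951, Spearman rho 0.95 and 0.883, n = 9). They were picked as the top of 31518 genes, and the files pair neither with a name. Glyma.19G151300 had 198, 171 and 307 FPKM at 12h, 175, 261 and 225 FPKM at 24h and 140, 184 and 187 FPKM at 48h, so it too was highest in 12h replicate 3 and 24h replicate 2. Without these 2 libraries, the farthest from the median total, r was 0.958 for Glyma.03G196300 and 0.83 for Glyma.19G151300.

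The rest of the pathway was described from a list of IDs assigned to steps by published soybean locus names. These names were recalled from memory with no source at hand, and no annotation used here could check them. Each step sum, and any order of the steps, holds only as far as the names are right and the lists complete. Upstream of chalcone synthase, the 8 IDs listed for phenylalanine ammonia-lyase, which releases cinnamate from phenylalanine, summed to group means of 250 ± 116, 261 ± 62 and 249 ± 10.1 FPKM for 12h, 24h and 48h (SD, 3 libraries a group). The 4 IDs for cinnamate hydroxylase summed to 69.7 to 242 FPKM per library and the 3 IDs for coumarate-CoA ligase, which makes coumaroyl-CoA, to 17.1 to 42.0 FPKM. The chalcone synthase total of 767 to 1521 FPKM was above the sum of the IDs listed for each of these steps in 9 of 9 libraries. The 3 highest IDs of this entry list were Glyma.10G058200, at 65.6 to 220 FPKM, Glyma.02G236500, at 54.1 to 176 FPKM, and Glyma.13G145000, at 28.5 to 66.9 FPKM.

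Downstream, the steps that follow directly on chalcone synthase were abundant. The 4 IDs listed for chalcone reductase, which acts with chalcone synthase to give the deoxychalcone of the daidzein branch, summed to 695 to 1167 FPKM. The 6 IDs for chalcone isomerase, which closes the chalcone ring, summed to 594 to 1393 FPKM, and the 2 IDs for isoflavone synthase to 166 to 428 FPKM. The highest IDs of this list were Glyma.18G285800 (369 to 664 FPKM), Glyma.20G241500 (234 to 608 FPKM) and Glyma.14G005700 (228 to 452 FPKM). Of the 12 IDs listed for flavonol, anthocyanin and flavone synthesis, 11 stayed under 1 FPKM in all 9 libraries. The exception, Glyma.02G048600, listed for flavanone hydroxylase, had 20.2 to 52.5 FPKM. Next came Glyma.08G062000 and Glyma.06G202300, with highest values of 0.928 and 0.798 FPKM.

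**Figure D4:**
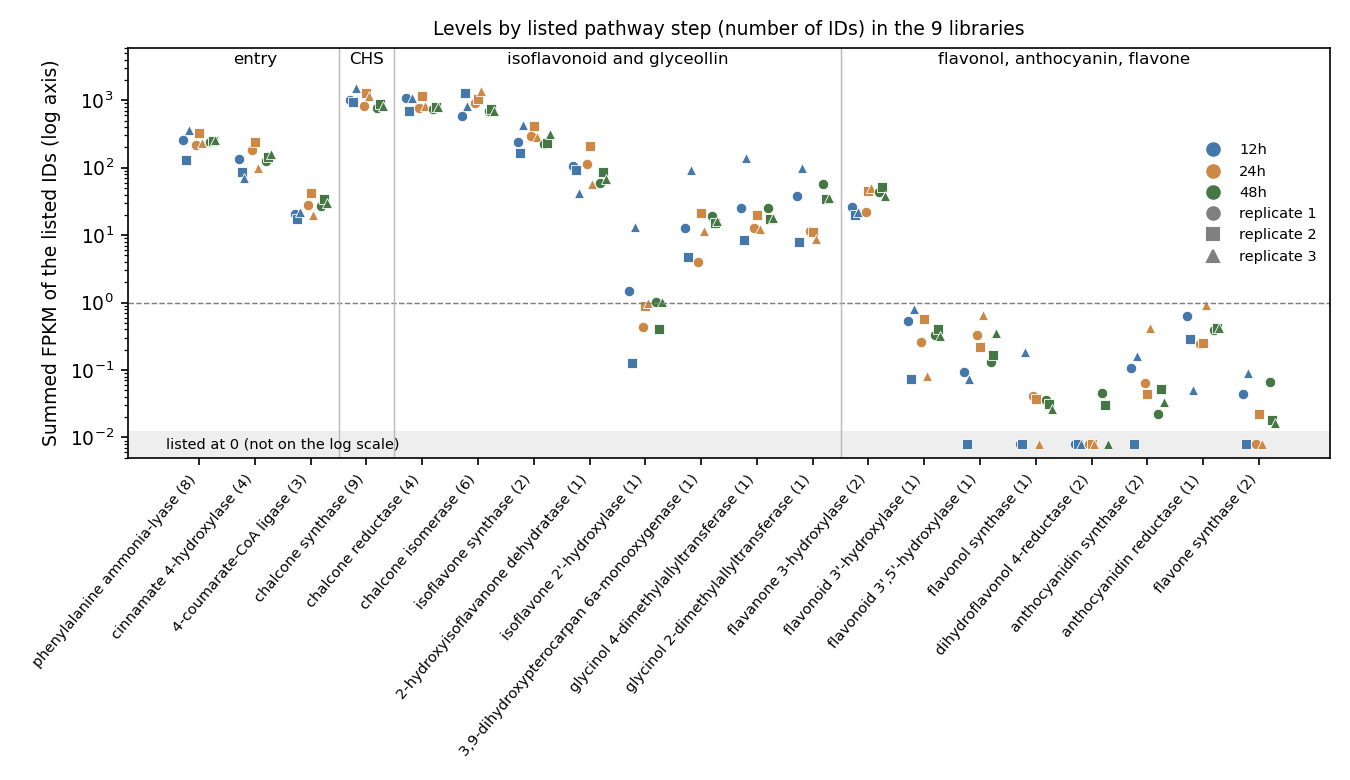
Summed FPKM (log axis) of the IDs listed for each pathway step, with their number in brackets, in each library, with color for the group and marker shape for the replicate. Chalcone synthase, chalcone reductase and chalcone isomerase are the highest steps as listed, at 594 to 1521 FPKM. The listed pigment steps after flavanone hydroxylase stay under 1 FPKM. The lists may be incomplete.

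As with chalcone synthase, no pathway ID passed the test. Among the entry IDs 13 of 15 were tested, among the isoflavonoid IDs 16 of 17, of the pigment IDs 1 of 12, and 1 of 1 for the regulator. In each comparison 0 of these were called up and 0 down by limma, beside 0.0381% of all tested genes between 24h and 12h, 0% between 48h and 24h, and 0.117% between 48h and 12h. With so few calls in the whole table, these counts say little about the pathway. For 48h against 12h the median log2 fold change was 0.368 over the tested entry IDs and -0.23 over the tested isoflavonoid IDs, with 0.341 over all genes. Glyma.05G032200, listed for MYB176, a factor published as an activator of the CHS8 gene, had 106, 40.8 and 14.95 FPKM at 12h, 139, 271 and 57.0 FPKM at 24h and 121, 126 and 129 FPKM at 48h. All 48h libraries lay above all 12h libraries, as they did at 19.8% of all tested genes, and 24h overlapped both. As deposited, it was lowest in 12h replicate 3, the library in which both copies of the pair were highest. After scaling, Glyma.01G228700 was highest in 12h replicate 2 instead. A link between the factor and the copies was not tested. The log2 fold change of Glyma.05G032200 was 1.60 for 48h against 12h (limma adjusted p = 0.458) and 1.65 for 24h against 12h (limma adjusted p = 0.499), neither past the threshold.

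As deposited, 12h replicate 3 was the highest library for both copies of the pair and for the IDs listed for late steps of defence isoflavonoids, which were singled out after their values were seen. Glyma.01G228700 had 902 FPKM there and at most 839 FPKM elsewhere, and after scaling it was higher in 12h replicate 2. The ID listed for isoflavone hydroxylase had 13.2 FPKM there and at most 1.47 FPKM in the other 8 libraries. The ID for the pterocarpan hydroxylase of glyceollin synthesis, the soybean phytoalexin, had 91.4 FPKM there, with at most 20.9 FPKM elsewhere. The IDs for the prenyltransferases that follow had 140 and 99.8 FPKM there, with at most 25.5 and 56.9 FPKM elsewhere. Other listed IDs went the other way. Glyma.01G239600, listed for hydroxyisoflavanone dehydratase, was lowest in 12h replicate 3 (42.0 FPKM, with at most 207 FPKM elsewhere). So were Glyma.02G236500 (54.1 FPKM) and Glyma.14G205200 (15.2 FPKM), listed for cinnamate hydroxylase. Of the 16 isoflavonoid IDs that reached 1 FPKM, 8 were highest in this library, as were 3 of the 7 chalcone synthase loci that did and 19% of all tested genes. It is 1 library of 3 at its age, so this is not a difference between ages, and the cause was not tested. Without it, the log2 difference of the family total for 24h against 12h was 0.11, against -0.097 with all libraries, and that for 48h against 12h was -0.26, against -0.47.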

How the data were processed

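RNA-seq was run on 9 libraries, for which the labels name a TruSeq kit. The deposited values are FPKM per gene ID, 1 column per library, made by the authors. TopHat2 2.1.0 and Cufflinks 2.2.1 are named per the submitters' processing notes. Genome build, annotation and the handling of reads shared by copies: not given in the sources used here. Whole reads could not be recovered: over 36 library pairs, 0.741% to 3% of IDs under 0.2 FPKM lay on 1 common ratio (within 1%). Depth is therefore unknown and no counting intervals are given. None of the IDs matched the RefSeq table (0 of 56044), and no sequences were available for use here.

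The 31518 genes that reached 1 FPKM in 3 or more libraries were fitted with limma 3.58.1 in R 4.3.3. The fit was on log2(FPKM + 1), with a term per group, an intensity trend and all 9 libraries. P-values were adjusted by Benjamini-Hochberg over all tested genes, with calls under 0.05. The script was tested on simulated data. The pair ratio used two-sided exact permutation tests. Sums and shares over the members carry no p. Named genes were all 9 members, the 3 highest IDs of each pathway list, any called pathway ID and the 2 genes most like the family total. The late steps of defence isoflavonoids were added after their values were seen. So were Glyma.01G239600 and Glyma.14G205200, named for being lowest in 12h replicate 3. Members and lists were chosen with earlier results of these data known. Alternatives were median-of-ratios scaling, quantile normalization, a pseudocount of 0.1, a threshold of 5 FPKM or none, a replicate block, fits on the 6 libraries of a comparison, and leaving out each library. Scaling with 12h replicate 2 left out, and groups that do not overlap after scaling, were added after seeing the data.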

Additional observations from a re-analysis of the deposited data

How the results depend on the processing

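Over the 67 alternative fits of the 4 counts of called chalcone synthase loci, the count was 0 in 67, as with all libraries, replicate block included (0 called). Many of these fits called few genes or none over the whole table, so a count of 0 loci says little. Replicate numbers are shared between groups, but deviations of same-numbered libraries correlated at -0.0778 to 0.351, so they were not taken as pairs. The block moved the calls over all genes to 21, 4, 102 and 81 for 24h against 12h, 48h against 24h, 48h against 12h and the 3 ages, from 12, 0, 37 and 9 without it. Without 12h replicate 2, limma called 3803, 3730, 1 and 3123 genes in these 4 tests. The fit on 6 libraries called 5412 for 48h against 24h, and scaling without 12h replicate 2 called 4997 (24h against 12h) but 0 (48h against 24h). For 48h against 12h, scaling called 1 gene and no filter 2, against 37. None of 345 alternative fold changes of single loci passed (0 under 0.05), and 7 of 21 kept their sign in all alternatives. Other filters, the block, the 6-library fits and leaving out a library outside the comparison do not move a fold change. A sign could not turn there. Signs turned as follows, with causes not tested. Leaving out 1 library gave log2 fold changes for 24h against 12h of -0.16 to 0.17 for Glyma.01G228700, -0.46 to 0.11 for Glyma.11G011500, -0.18 to 0.073 for Glyma.05G153200, -0.28 to 0.23 for Glyma.08G109400 and -0.58 to 0.19 for Glyma.08G109500. For 48h against 24h it gave -0.32 to 0.014 for Glyma.11G011500, -0.45 to 0.030 for Glyma.08G109400 and -0.66 to 0.11 for Glyma.08G109500. For 48h against 12h it gave -0.19 to 0.15 for Glyma.02G130400 and -0.0080 to 0.22 for Glyma.05G153200. It also gave -0.23 to 0.11 for the family total (24h against 12h) and -0.36 to 0.0011 for the pair ratio (48h against 12h). Quantile normalization gave, for 48h against 24h, 0.066 for Glyma.01G228700, 0.41 for Glyma.11G011500, -0.017 for Glyma.02G130400, -0.23 for Glyma.05G153200 and -0.0100 for Glyma.09G075200, and, for 48h against 12h, -0.32 for Glyma.02G130400 and -0.27 for Glyma.05G153200. Median-of-ratios scaling gave -0.082 for Glyma.05G153200 (48h against 24h), and -0.39 for Glyma.02G130400 and -0.23 for Glyma.05G153200 (48h against 12h). Scaling with 12h replicate 2 left out gave 0.015 for Glyma.01G228700 (24h against 12h), -0.084 for Glyma.05G153200 (48h against 24h), and -0.37 for Glyma.02G130400 and -0.17 for Glyma.05G153200 (48h against 12h). Scaling moved the log2 difference of the family total to -0.68 from -0.37 (48h against 24h) and to -0.94 from -0.47 (48h against 12h). Depth is unknown, so its part was not tested.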
